A study of Brassica napus with 112 samples.

Results

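The beginnings of chromosomes A03 and C03 of rapeseed (Brassica napus) were examined for differences in transcript level between the spring hybrids Lumen and Solar. The members are the genes numbered BnaA03g00010D to BnaA03g06000D and BnaC03g00010D to BnaC03g06000D whose deposited value reached 1 in no fewer than 47% of the 56 silique libraries or of the 56 seed libraries. BnaA03g02820D and BnaC03g04170D were left out by the rule. Of 1198 remaining loci in these ranges, 839 were members, 438 on A03 and 401 on C03, out of 60177 genes that passed the same minimum in the whole table of 101040. The region was chosen by the difference in deposited values between Lumen and Solar in these same libraries, so the hybrid difference is described here without a test. Heat, sampling time, season and the interactions of the hybrid with other factors were not used in the choice and were tested.

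RNA-seq had been made from siliques and from seeds of field plots in the seasons 2019 and 2020, at 7 and 14 days after flowering (DAF). Control plots were not manipulated. Heated plots were held under polyethylene film with a target of 5 °C of warming from the start of flowering to 15 days after it. The average increase that the paper reports was somewhat smaller. Each tissue had 16 conditions of hybrid, treatment, time and season, with 3 libraries per condition in 2019 and 4 in 2020. The hybrid comparison thus sets 28 libraries of Lumen against 28 of Solar in each tissue. At the same DAF the hybrids were sampled on different dates, which lay further apart in 2019 than in 2020. All groups are commercial spring hybrids, so a silique is tissue of the hybrid plant, whereas its seeds contain the next generation. Warming cannot be told apart from other effects of the film. Each replicate is described as an independent plot, but the field layout names 3 replicates in both seasons. The plots behind the 4 libraries of a 2020 condition are thus not settled. In 2019 heat was assigned to main plots and the hybrids to sub-plots, and plots were sampled at both times. Libraries may therefore share a plot or a main plot, for which the main fit had no term. The p-values measure the spread between these libraries and treat them as independent.

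Rapeseed is an allotetraploid that carries an A subgenome from Brassica rapa and a C subgenome from Brassica oleracea. Many genes therefore exist as a pair of related copies, called homoeologues, and A03 and C03 are related over much of their length. Exchanges between such related chromosomes are known in rapeseed as a source of differences between lines in how many A and C copies are present, which is background and was not measured here. Pseudoalignment can split reads between near-identical copies, so the value of a single member with a close copy is uncertain. The identifiers order the genes along each chromosome, and equal numbers on A03 and C03 do not mark homoeologous pairs.

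The deposited values of a library summed to 890194 to 1658548 over all genes, and the members held 1.035% to 1.817% of that sum. A pair of seed libraries stood apart from the others. Solar control 14 DAF 2019 replicate 1 had the highest sum, and Lumen heated 7 DAF 2020 replicate 4 listed 66990 genes at 0, against a median of 47882 in Lumen seeds. As a check of the labels, genes outside the region that were at a median of 0 in one hybrid and at least 10 in the other were summed. The share of that sum from genes of the Lumen kind was 77.3% to 99.6% in libraries of Lumen and 0.247% to 12.1% in libraries of Solar.

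Most C03 members had higher values in Lumen. The log2 difference, which is the mean of log2(value + 0.5) in Lumen minus that in Solar averaged over the 8 combinations of treatment, time and season, had a median over C03 members of 0.62 in siliques and 0.59 in seeds. Taken as ratios these medians are 1.54 and 1.51. The quartiles were 0.13 and 0.88 in siliques and 0.20 and 0.86 in seeds. Of 362 C03 members measured in siliques, 289 were higher in Lumen, and of 373 measured in seeds, 299 were higher. Over all genes tested, 49.1% were higher in Lumen in siliques and 45.1% in seeds, with medians of -0.01 and -0.04. The rest of C03 had medians of -0.02 in siliques and -0.03 in seeds. Lumen was the higher hybrid in all 8 combinations for 175 C03 members in siliques and 170 in seeds, where 9.96% and 10.3% of all genes were. A log2 difference of at least 1 was reached by 54 C03 members in siliques (4.07% of all genes) and 43 in seeds (3.97%), and one of -1 or less by 10 (4.78%) and 14 (5.12%).

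A03 members differed the other way and by less. Their median log2 difference was -0.21 in siliques and -0.32 in seeds, and 254 of 401 in siliques and 264 of 395 in seeds were lower in Lumen. Lumen was the lower hybrid in all 8 combinations for 105 A03 members in siliques and 139 in seeds, against 10.6% and 12.9% of all genes. The rest of A03 had medians of 0.01 in siliques and -0.03 in seeds. Some members passed the minimum value through 1 hybrid only, 29 in Lumen and 20 in Solar, and 790 passed it within both. With members that passed within both hybrids in the tissue, the medians were 0.62 and 0.59 on C03 and -0.20 and -0.32 on A03. Without the pair of seed libraries that stood apart, the seed medians were 0.62 on C03 and -0.28 on A03.

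Along C03 the difference was above 0 from the chromosome's start and ended within the region. Up to BnaC03g05500D the median of a bin of 50 loci lay between 0.26 and 0.74 in siliques, and the seed medians lay between 0.28 and 0.80. With only members of a mean of at least 10, the first bin had 0.25 in siliques (n = 7) and 0.10 in seeds (n = 6). Both were lower than in any later bin up to BnaC03g05500D. The bin from BnaC03g05510D to BnaC03g06000D had medians of -0.00 and 0.09, and the 2 bins that follow it outside the region lay between -0.02 and 0.09. Among members with a mean of at least 5, the last high value before that change was at BnaC03g05740D, with log2 differences of 1.05 in siliques and 0.83 in seeds. Its neighbour BnaC03g05770D had -0.15 and -0.12. The stretch from BnaC03g02510D to BnaC03g03500D was lower than those around it, with medians of 0.39 and 0.31, and held members that differed strongly in the other direction. The stretches named here were drawn after their values were seen.

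Along A03 the difference changed sign. The first 50 loci had medians of -0.17 in siliques and -0.13 in seeds. From BnaA03g00510D to BnaA03g01500D the medians were -0.70 and -0.90, and 57 of 64 members in siliques and 58 of 65 in seeds were lower in Lumen. From BnaA03g01510D to BnaA03g04000D they were -0.38 and -0.45. From BnaA03g04510D to BnaA03g05500D the medians were above 0, at 0.28 and 0.33, and 50 of 67 members in siliques and 43 of 61 in seeds were higher in Lumen. The end of the region, from BnaA03g05510D, had medians of -0.02 and -0.07. Outside it, the bin from BnaA03g06510D to BnaA03g07000D had 0.67 and 0.52, so the hybrids also differed beyond the range that the rule covers.

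**Figure D1:**
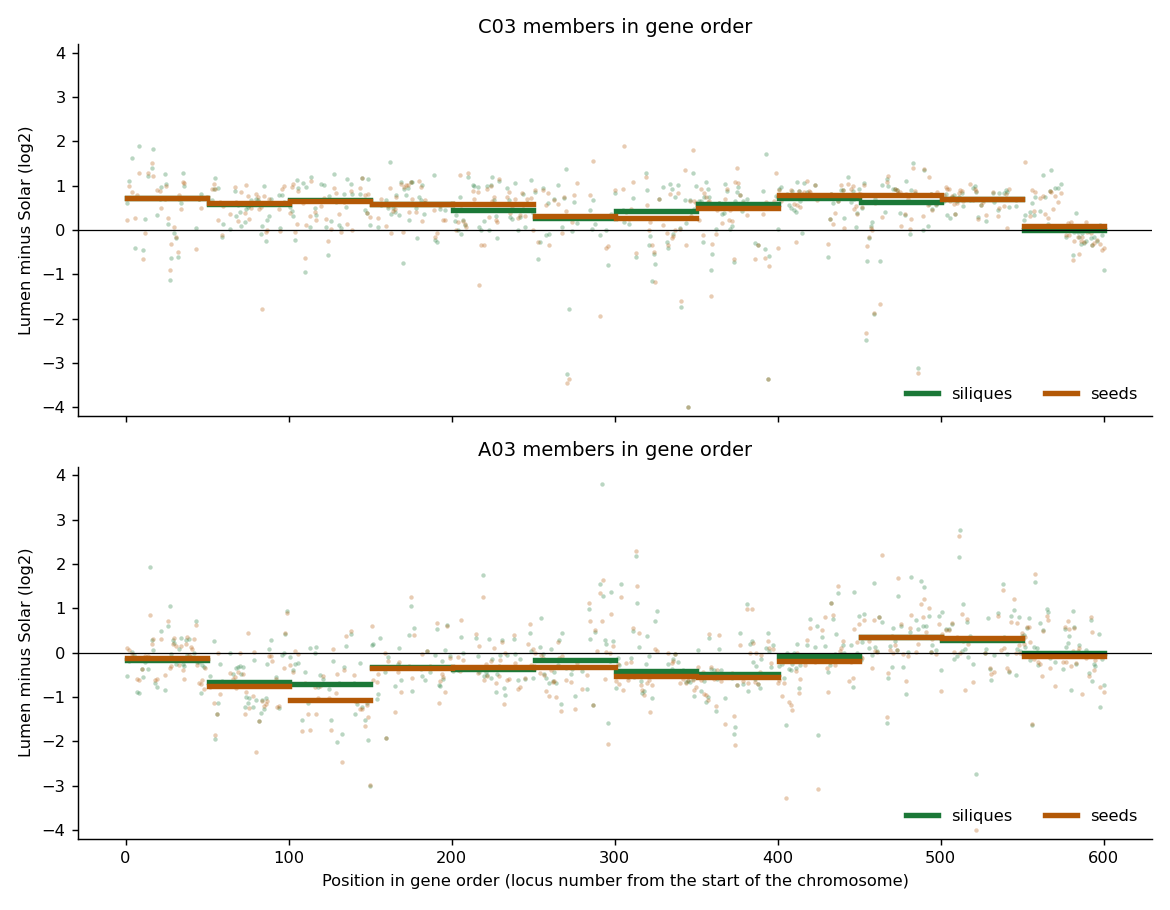
Log2 difference (Lumen minus Solar) of each C03 and A03 member against its place in the gene order, in siliques (green) and seeds (orange), with thick lines for the median of each 50 loci and points beyond 4 units from 0 drawn at that limit. C03 medians lie above 0 and drop to -0.00 and 0.09 in the last bin, and A03 medians fall to -0.72 and -1.07 in the third bin and rise above 0 in the tenth and eleventh.

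The difference was present in single libraries. For each library, the log2 value of every member was set against the mean of the other hybrid in the same condition, and the median over the stretch was taken. For C03 up to BnaC03g05500D it was 0.33, 0.64 and 0.75 in siliques of Lumen and 0.21, 0.64 and 0.98 in seeds of Lumen, as lowest, median and highest of 28 libraries. In libraries of Solar the highest was -0.31 in siliques and -0.32 in seeds. Every library thus lay on the side of 0 that goes with its label. Since each hybrid is set against the other, a difference moves both groups apart in opposite directions. The gap between the groups is therefore wider than that between the values, and does not show that the values themselves do not overlap. The lowest Lumen seed library, heated 7 DAF 2020 replicate 4, was the one with the most genes at 0, and its median over all genes tested was -0.56. For A03 from BnaA03g00510D to BnaA03g01500D, libraries of Lumen ranged from -1.04 to -0.37 in siliques and from -1.39 to -0.53 in seeds, and all libraries of Solar were above 0. The -1.39 came from that same seed library with the most genes at 0, and the next lowest Lumen seed library was at -1.28. In the last 50 loci of C03 not every library lay on the side of its label, with 4 silique and 3 seed libraries of Lumen below 0.

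**Figure D2:**
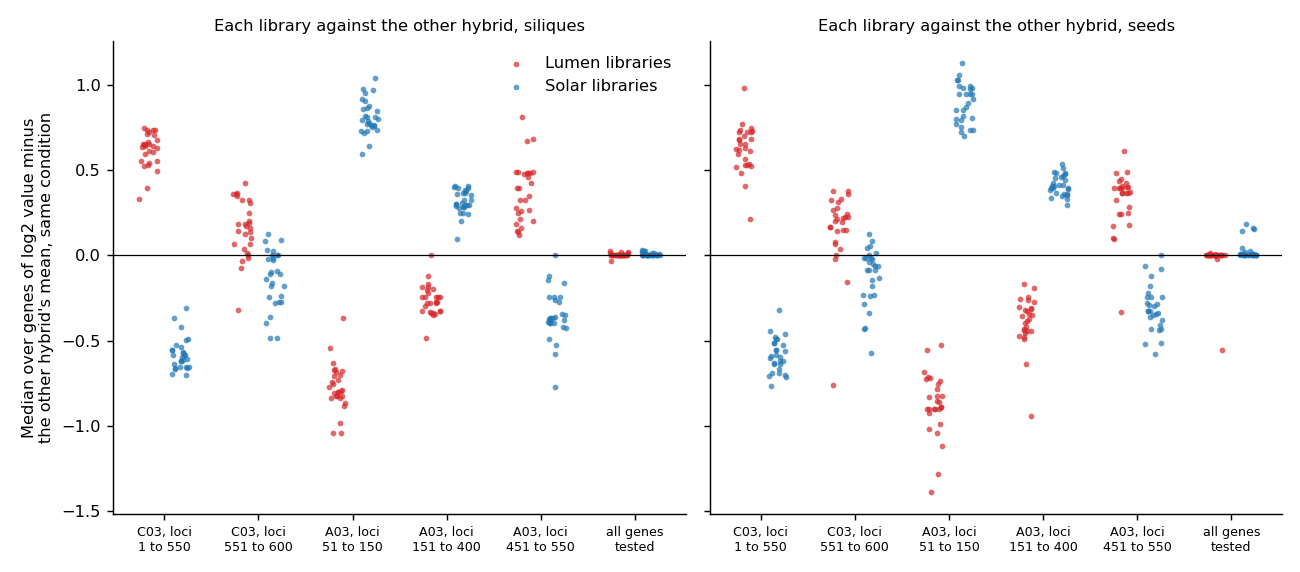
Median over the members of a stretch of each library's log2 value minus the other hybrid's mean in the same condition, 28 libraries per hybrid and tissue, with points spread sideways for legibility. Libraries of Lumen (red) and Solar (blue) lie on opposite sides of 0 for C03 up to locus number 550 and for A03 from 51 to 150. Setting each hybrid against the other widens this gap. For all genes tested both lie near 0, except 1 seed library of Lumen at -0.56 and the 4 Solar seed libraries of its condition at 0.145 to 0.184.

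The share of C03 in the summed member values put both chromosomes on 1 scale. In siliques of Lumen C03 held 48.8%, 59.9% and 64.7% of the A03 and C03 sum, as lowest, median and highest, and in siliques of Solar 43.6%, 47.8% and 53.5%. In seeds it held 41.7%, 49.0% and 56.2% in Lumen and 26.4%, 33.5% and 43.9% in Solar. The ranges overlapped over all conditions, but within a condition the lowest Lumen library was above the highest Solar library in 15 of 16 comparisons. The exception was siliques of heated plots at 7 DAF in 2019, where Lumen replicate 3 was at 48.8% and the highest Solar library at 51.5%. The seed library of the same condition and number was also the lowest of its group, at 43.7%, and without it the mean of that group was 52.9% in place of 49.8%. The cause was not tested.

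In proportion, the summed value of both chromosomes together differed less between the hybrids than either part. The parts differed in opposite directions and so partly cancel in the sum. In siliques its median was 12385.5 in Lumen and 11759 in Solar, with a C03 sum of 7397.5 against 5653 and an A03 sum of 4954 against 6224.5. In seeds it was 13935 in Lumen and 16060.5 in Solar, with a C03 sum of 6975 against 5410 and an A03 sum of 7138.5 against 10797. A few members weighed on these sums. BnaA03g04080D and BnaA03g03530D held 21.0% and 13.8% of the A03 sum in seeds, and BnaA03g04080D had a mean of 1134 ± 392 (SD, n = 28) in Lumen and 2655 ± 1217 in Solar. Without both members the C03 share in seeds was 57.8% in Lumen and 45.3% in Solar.

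**Figure D3:**
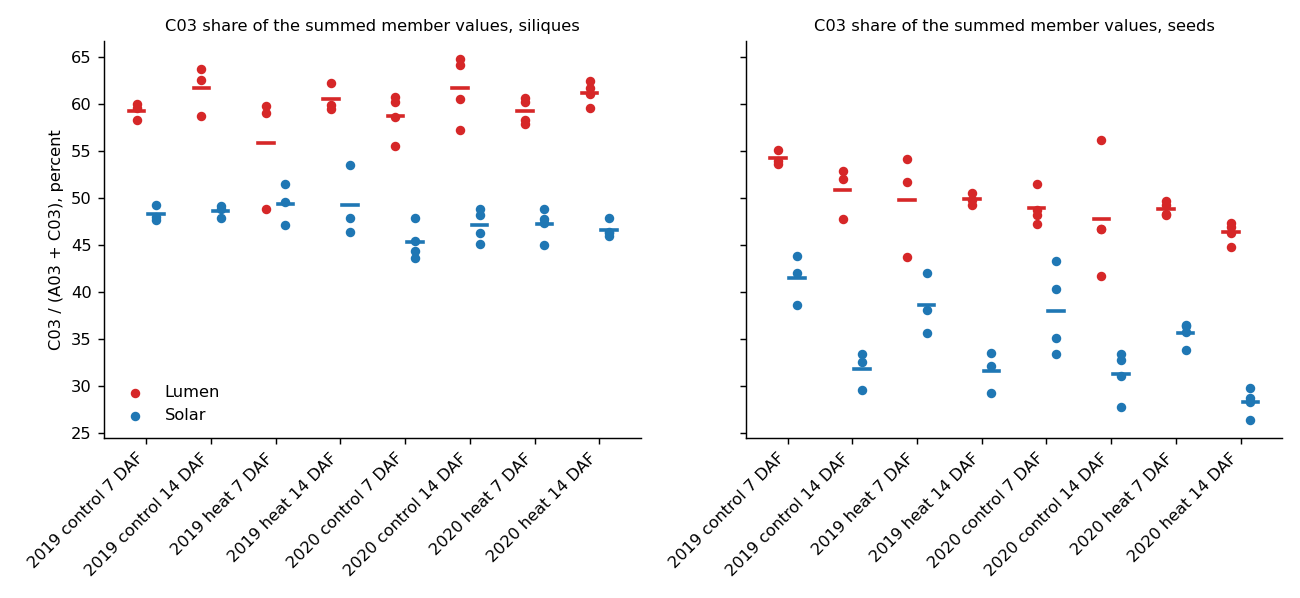
Percent of the summed A03 and C03 member values that came from C03, 1 point per library and a bar for the mean, by season, treatment and sampling time, for Lumen (red) and Solar (blue). Lumen lies above Solar in every condition except for 1 library of heated siliques at 7 DAF in 2019, at 48.8%.

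The members named next for the hybrid difference ranked highest in their direction on each chromosome by the smaller of their differences in siliques and seeds. They were picked by the same values as the region and are extremes. Only members with a mean of at least 20 in the higher hybrid in both tissues and 1 direction in all combinations were ranked. Over all C03 members the lowest log2 differences were -4.69 in siliques and -5.47 in seeds. BnaC03g00160D, which the study annotated with ferroxidase activity and ferric iron binding, the activities by which ferritin-type proteins store iron, had 58, 144 and 657 in siliques of Lumen and 30, 56 and 104 in siliques of Solar, as lowest, median and highest of 28. In seeds it had 44, 104 and 344 in Lumen and 10, 38.5 and 159 in Solar. Its hybrids overlapped in both tissues, and its log2 differences were 1.41 and 1.52. BnaC03g01450D, annotated with ribonucleoprotein complex biogenesis, a step in making ribosomes and related particles, had 36, 59 and 123 against 17, 30 and 51 in siliques. In seeds it had 47, 78.5 and 121 against 24, 34.5 and 59. The hybrids overlapped in part, with log2 differences of 1.17 in both tissues.

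On A03, BnaA03g00820D was lower in Lumen without overlap. It is annotated with NAD binding and oxidoreductase activity on alcohol groups, that is, with a dehydrogenase type of reaction. It had 8, 10 and 17 in siliques of Lumen and 25, 31 and 40 in siliques of Solar. In seeds it had 7, 13 and 18 in Lumen and 32, 38.5 and 44 in Solar, with log2 differences of -1.55 and -1.54. BnaA03g01470D had 12, 19.5 and 31 in siliques of Lumen and 32, 60.5 and 78 in Solar. In seeds it had 3, 8.5 and 13 against 20, 26 and 43, also without overlap.

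Some members went against the side of their chromosome. BnaA03g05580D had 18, 27.5 and 51 in siliques of Lumen and 6, 9 and 15 in Solar. In seeds it had 29, 37 and 90 against 7, 11 and 19, so that every Lumen library was above every Solar library. BnaA03g05380D had log2 differences of 1.55 in siliques and 1.41 in seeds. On C03, BnaC03g03130D was lower in Lumen with medians of 37 against 62 in siliques and 24 against 34 in seeds, and BnaC03g00110D had medians of 20.5 against 27 and 24 against 37.5. The hybrids overlapped for both.

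**Figure D4:**
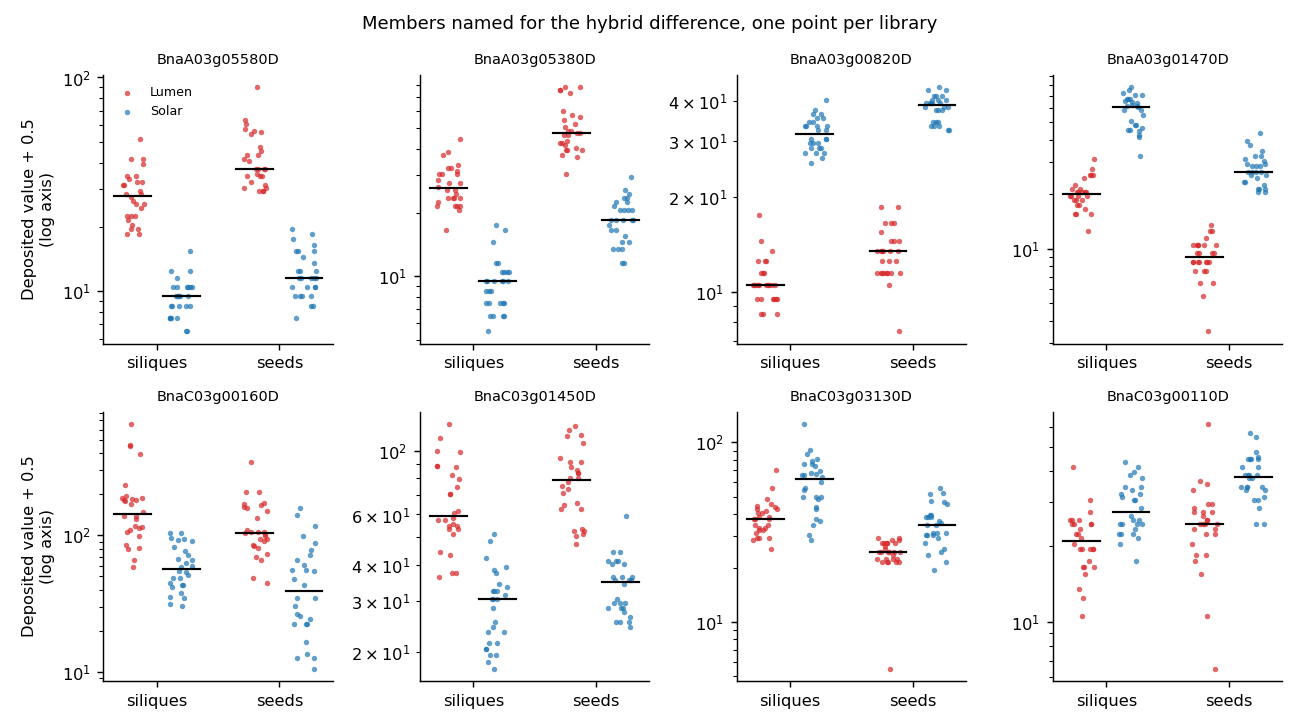
Deposited value + 0.5 on a log axis of the members named for the hybrid difference, 1 point per library with bars for the medians, Lumen in red and Solar in blue, points spread sideways. BnaA03g05580D, BnaA03g00820D and BnaA03g01470D separate the hybrids without overlap in both tissues, and the C03 members overlap.

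Members without overlap between the hybrids were a small part of the region. All 28 Lumen libraries were above all 28 Solar libraries for 2 of 362 C03 and 5 of 401 A03 members in siliques, where 0.725% of all genes were. In seeds this held for 14 of 373 C03 and 9 of 395 A03 members, where 0.909% were. The reverse held for 1 C03 and 7 A03 members in siliques (0.670% of all genes) and for 1 C03 and 19 A03 members in seeds (1.12%). The A03 shares, and the C03 share with Lumen above in seeds, exceeded those of all genes, and the other C03 shares did not. These are the values by which the region was chosen. Members with a mean under 0.5 in Lumen and at least 5 in Solar numbered 2 in siliques, both on C03, and 2 on C03 and 2 on A03 in seeds, where 0.214% of all genes in siliques and 0.214% in seeds met this. Of these, BnaC03g03450D was listed at 0 in all 56 libraries of Lumen and so passed the minimum value through Solar alone. It had 2, 13.5 and 33 in siliques and 2, 24.5 and 49 in seeds of Solar. BnaA03g05220D had 0, 0 and 2 in seeds of Lumen and 4, 10 and 24 in seeds of Solar. The reverse, a mean under 0.5 in Solar and at least 5 in Lumen, was met by 0 members and by 0.174% of all genes in siliques and 0.212% in seeds.

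Functional terms were matched to 55 members. The terms come from the study's co-expression modules, which were built on seed libraries of this series in which the hybrids differ, so the directions of their genes are not independent evidence. In the module with the most members here, all 10 A03 and 25 C03 members were higher in Lumen in both tissues. They included BnaC03g01140D, annotated with purine salvage, the reuse of bases for nucleotides, with a mean of 97.0 ± 15.2 (SD, n = 28) in siliques of Lumen and 42.7 ± 9.94 in Solar. BnaC03g03680D, annotated with the glycolytic process, the breakdown of sugars, had 40.0 ± 5.48 and 19.4 ± 3.08. BnaA03g05820D, a protein folding factor by its terms, had 31.6 ± 7.96 and 20.9 ± 3.92. In the second module all 4 members, on A03, were lower in Lumen in both tissues. In the other, all 14 A03 members were lower in seeds and 13 in siliques, where BnaA03g02940D had a log2 difference of 0.29. Its 2 C03 members, BnaC03g00270D and BnaC03g04590D, were lower in Lumen in both tissues, against the side of most C03 members. Among the A03 members BnaA03g03560D, annotated with iron-sulfur cluster binding, had 19.5 ± 3.09 in seeds of Lumen and 38.5 ± 5.89 in Solar.

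The hybrid difference itself changed with the season for some members. Since the sampling dates of the hybrids lay further apart in the earlier season, an effect of season cannot be told apart from one of the dates. limma's moderated test of the interaction, with Benjamini-Hochberg adjustment over all genes and a threshold of 0.01, called 34 of 763 members in siliques (4.46%, against 4.45% of all genes) and 54 of 768 in seeds (7.03%, against 5.82%). In siliques the Lumen minus Solar difference was higher in 2020 for 22 members (2.72% of all genes) and lower for 12 (1.73%). In seeds it was higher for 38 (3.42% of all genes) and lower for 16 (2.40%). The share in siliques was close to that of all genes, and the share in seeds was somewhat above it. With each replicate number left out, 6 to 34 members were called in siliques and 12 to 61 in seeds.

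BnaA03g03740D had the largest such change among members with a mean of at least 20. In seeds of Solar it had 18, 175.5 and 613 in the 12 libraries of 2019 and 1, 4.5 and 21 in the 16 of 2020. In seeds of Lumen it had 1, 4 and 16 in 2019 and 0, 8.5 and 153 in 2020. Seeds of Solar in 2019 were thus the high group, above all 12 Lumen libraries of that season, and the log2 difference was higher in 2020 by 4.91 ± 0.59 (SE, adjusted p = 1.63e-07). In siliques it was higher by 5.25 ± 0.86 (adjusted p = 6.06e-05), with medians of 40.5 and 1 in Solar and 1.5 and 3.5 in Lumen, a call that was lost without replicate number 1.

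BnaA03g04590D shared this direction in seeds, with medians of 19.5 in 2019 and 47 in 2020 in Lumen and of 30 and 8.5 in Solar (2.03 ± 0.30, adjusted p = 5.22e-06). BnaA03g01650D shared it in siliques, with 7 and 20.5 in Lumen and 33 and 13.5 in Solar (2.67 ± 0.46, adjusted p = 0.000109). For both, the hybrid with the higher median was not the same in the 2 seasons.

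BnaC03g00840D, the largest part of the C03 sum in seeds, went the other way. In Lumen it had 88, 290 and 617 in 2019 and 17, 118 and 261 in 2020, and in Solar 267, 580.5 and 1410 and 104, 542 and 1351. Lumen was the lower hybrid by median in both seasons and further below Solar in 2020 (log2 change -1.31 ± 0.29, adjusted p = 0.00204), a call that was lost without replicate number 1 or 2. BnaA03g02410D in seeds had medians of 44.5 and 20 in Lumen and 54 and 60.5 in Solar (-1.25 ± 0.17, adjusted p = 2.74e-06), and BnaA03g00640D in siliques had 29 and 23 in Lumen and 21.5 and 32.5 in Solar (-0.88 ± 0.15, adjusted p = 0.000154). The latter call was lost without replicate number 2.

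The medians over the members of each chromosome kept their sign in each season. On C03 the median was 0.605 with libraries of 2019 alone and 0.625 with those of 2020 in siliques, and 0.551 and 0.604 in seeds. Over the 8 combinations of treatment, time and season it ranged from 0.49 to 0.68 in siliques and from 0.45 to 0.68 in seeds. On A03 the range was -0.25 to -0.12 in siliques and -0.42 to -0.18 in seeds.

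Sampling time changed the hybrid difference of few members. The interaction was called for 36 of 763 members in siliques (4.72%, against 5.07% of all genes), with 12 higher at 14 DAF (1.87% of all genes) and 24 lower (3.20%). In seeds it was called for 9 of 768 (1.17%, against 1.11%), with 6 higher (0.559%) and 3 lower (0.555%). Both shares were near those of all genes.

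BnaC03g02720D, in seeds of Lumen, had 2, 3 and 7 at 7 DAF and 3, 20 and 77 at 14 DAF. In seeds of Solar it had 64, 105 and 156 and then 46, 62.5 and 83. All Lumen libraries were below all Solar libraries at 7 DAF and the ranges met at 14 DAF, with a change in log2 difference of 3.05 ± 0.24 (SE, adjusted p = 1.94e-11). The iron-binding member BnaC03g00160D differed more between the hybrids at the later time in siliques. It had medians of 109.5 at 7 DAF and 187.5 at 14 DAF in Lumen and of 58.5 and 53.5 in Solar (1.13 ± 0.26, adjusted p = 0.00269), and at 14 DAF its lowest Lumen library, at 110, was above the highest Solar library, at 103. The call was lost without replicate number 1, 2 or 3 and with 2020 alone.

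BnaA03g00670D went further below Solar with time. In siliques of Lumen it had 33, 50.5 and 74 at 7 DAF and 20, 26.5 and 36 at 14 DAF, and in Solar 34, 68 and 88 and then 43, 62.5 and 96. The hybrids overlapped at 7 DAF and did not at 14 DAF (-0.99 ± 0.13, adjusted p = 5.82e-07). In seeds the change was -0.47 ± 0.09 (adjusted p = 0.00186), a call that was lost with any replicate number left out. BnaA03g04950D had medians of 27.5 and 17.5 in siliques of Lumen and 22 and 20.5 in Solar (-0.82 ± 0.10, adjusted p = 4.32e-07), a call that was lost with 2020 alone.

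Heat did not change the hybrid difference of any member past the threshold. limma called 0 of 763 members in siliques and 0 of 768 in seeds, and 0% of all genes in both, and 39 and 29 members had an unadjusted p under 0.05. That a test misses its threshold does not show that the hybrids respond alike.

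The hybrid difference was not the same in seeds as in siliques for 78 of 692 members measured in both tissues (11.3%, against 10.3% of all genes). The Lumen minus Solar difference was higher in seeds for 26 (4.11% of all genes) and lower for 52 (6.19%). Of 358 A03 members it was higher for 14 and lower for 33, and of 334 C03 members higher for 12 and lower for 19. The whole share was near that of all genes.

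BnaC03g00060D had 35, 55.5 and 94 in siliques of Lumen and 33, 77 and 135 in siliques of Solar, but 37, 57.5 and 89 against 34, 50.5 and 69 in seeds. Lumen was the lower hybrid by median in siliques and the higher in seeds, with overlap in both (change 0.68 ± 0.10, SE, adjusted p = 2.13e-07). BnaC03g02050D was higher in Lumen in both, with medians of 44 against 27 in siliques and 37.5 against 15.5 in seeds, and in seeds its ranges of 26 to 55 and 12 to 24 did not overlap (0.50 ± 0.10, adjusted p = 6.46e-05). BnaA03g03200D had medians of 31.5 against 25 in siliques and 75 against 124.5 in seeds (-1.06 ± 0.14, adjusted p = 5.81e-09), and BnaC03g01110D had 25 against 12.5 and 21.5 against 17.5 (-0.86 ± 0.18, adjusted p = 0.000136). The calls of BnaC03g02050D and BnaC03g01110D were lost without replicate number 2, and also with 2019 alone for the former and 2020 alone for the latter.

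Heat over both hybrids changed few members. In siliques limma called 35 of 763 (4.59%, against 5.09% of all genes), 16 higher (2.19% of all genes) and 19 lower (2.90%) in heated plots. In seeds it called 19 of 768 (2.47%, against 1.64%), 13 higher (0.999%) and 6 lower (0.641%). The share was near that of all genes in siliques and above it in seeds. These counts were 9 to 20 in siliques and 2 to 12 in seeds with each replicate number left out. They also rested on the libraries of both seasons, since those of 2019 alone gave 0 calls in siliques and 1 in seeds and those of 2020 alone gave 12 and 11.

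In siliques BnaA03g04590D had 7, 43 and 155 in control and 3, 16 and 77 in heated libraries, and it fell by 1.41 ± 0.20 on the log2 scale (SE, adjusted p = 2.77e-06). BnaC03g03480D had 14, 38 and 114 in control and 6, 18.5 and 75 in heated libraries and fell by 0.84 ± 0.11 (adjusted p = 1.61e-06). BnaA03g03440D, another member annotated with NAD binding, rose, with 44, 79 and 169 in control and 39, 115 and 183 in heated libraries (0.44 ± 0.10, adjusted p = 0.00182), a call that was lost without replicate number 1 or 3. All 3 calls were lost with 2019 alone, and control and heated libraries overlapped widely.

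In seeds BnaA03g03740D had 0, 3 and 180 in control and 3, 10.5 and 613 in heated libraries and rose (2.13 ± 0.30, adjusted p = 7.39e-06), a call that was lost without replicate number 2. BnaC03g03100D had 1, 12 and 36 and then 2, 24 and 100 (0.88 ± 0.21, adjusted p = 0.00874), a call near the threshold that was lost under 8 alternatives.

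Sampling time moved more members than heat or season. In siliques it called 273 of 763 (35.8%, against 34.3% of all genes), 121 higher (17.2%) and 152 lower (17.1%) at 14 DAF. Of 401 A03 members 56 were called higher and 93 lower, and of 362 C03 members 65 were called higher and 59 lower. In seeds it called 272 of 768 (35.4%, against 37%), 148 higher (20.7%) and 124 lower (16.3%). Both totals were near the shares of all genes.

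In seeds BnaA03g00980D rose from 0, 1 and 26 at 7 DAF to 4, 139 and 665 at 14 DAF (6.08 ± 0.33, SE, adjusted p = 1.63e-19). BnaA03g04590D rose from 1, 7.5 and 20 to 9, 56 and 173 (2.69 ± 0.15, adjusted p = 1.89e-19), whereas in siliques it fell, with medians of 41 and 19.5 (-0.91 ± 0.20, adjusted p = 0.000203), a call that was lost with 2019 alone. BnaA03g02410D fell in seeds from 21, 66.5 and 129 to 5, 20.5 and 57 (-1.58 ± 0.09, adjusted p = 2.01e-19). The ranges at the 2 times overlapped in each case.

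In siliques BnaC03g01090D had 2, 6.5 and 113 at 7 DAF and 8, 64.5 and 162 at 14 DAF (2.65 ± 0.29, adjusted p = 4.32e-10). BnaA03g00780D had 2, 16 and 94 and then 13, 110.5 and 270 (2.57 ± 0.23, adjusted p = 2.86e-12). Both rose with wide overlap.

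Season called 93 of 763 members in siliques (12.2%, against 15.2% of all genes), 32 higher (7.32%) and 61 lower (7.92%) in 2020. In seeds it called 219 of 768 (28.5%, against 27.3%), 90 higher (12.2%) and 129 lower (15.1%). BnaC03g01260D fell in both tissues. It had a median of 535 and a highest value of 1250 in the 24 silique libraries of 2019 and 12, 143 and 839 in the 32 of 2020 (-1.48 ± 0.30, SE, adjusted p = 0.000202), and 76, 233.5 and 661 and then 54, 145.5 and 295 in seeds (-0.79 ± 0.12, adjusted p = 8.07e-07). BnaA03g05320D rose in seeds from 14, 30 and 68 to 29, 60 and 115 (0.89 ± 0.10, adjusted p = 1.28e-09), and BnaC03g04550D rose in siliques from 15, 32.5 and 94 to 27, 56.5 and 88 (0.64 ± 0.10, adjusted p = 1e-05). The silique call of BnaC03g01260D was lost without replicate number 1 or 3, and the seasons overlapped for all of these.

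At the edge of the rule, 4 members reached the minimum value in 27 of 56 libraries, and 6 loci missed it with 26. The log2 differences in siliques of the former ran from -0.74 to 1.36 and those of the latter from -0.51 to 1.04, and in seeds from -0.05 to 1.37 and from -1.19 to 0.23. At the end of the range, BnaC03g06000D, the last C03 member, had -0.89 in siliques and -0.39 in seeds, and its neighbour outside, BnaC03g06010D, had 0.04 and -0.04. On A03 the last member, BnaA03g06000D, had -0.73 and -0.90, and BnaA03g06010D outside had -0.64 and -0.39.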

How the data were processed

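RNA-seq of 56 silique and 56 seed libraries was used. Per the labels and methods, the authors quantified transcripts with kallisto 0.46 and modelled them in sleuth. The deposited values are whole numbers per gene and were treated as a score that is TPM-like, since their exact scaling is not given in the sources used here. The reads behind a value, and so its counting error, are unknown, and the spread between libraries served as the error. Values became log2(value + 0.5). In each tissue limma 3.58.1 in R 4.3.3 fitted hybrid, treatment, time and season with all interactions to every gene that reached 1 in no fewer than 47% of libraries, and the interaction with tissue came from 1 fit over both. Benjamini-Hochberg adjusted p under 0.01 counted as called. Python 3.11.15 with pandas 2.3.3 made the summaries. The code was tested on simulated data. Members, lists and stretches were chosen with earlier results of these data known. Named members follow a rule on size of difference, a mean of at least 20 and 1 direction in all combinations, with members bearing the study's functional terms and those at the rule's edges. The members near 0 in Lumen, the largest members of the sums and BnaC03g05740D and its neighbour were picked after their values were seen. The files do not pair identifiers with names, and 35 of 839 matched symbols of another assembly, from which no names were used. The alternatives tried were rescaling, a pseudocount of 5, a minimum of 5 or none, a replicate block, libraries left out and single seasons.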

Additional observations from a re-analysis of the deposited data

Results flagged for a closer look

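The hybrid difference of a member depended on another factor, by limma's test of the interaction with Benjamini-Hochberg adjustment, in 5 sets of members. It differed between the seasons for 34 members in siliques and 54 in seeds. It differed between the sampling times for 36 members in siliques and 9 in seeds. It differed between the tissues for 78 members. The shares of all genes so called stand beside these counts in the report. In the groups of 4 libraries from 2020, no library stood far enough from the other 3 in its C03 share to pass Dixon's criterion, over 16 groups tested.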

How the results depend on the processing

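The direction of the hybrid difference held under every alternative run, and its size depended on the pseudocount. With a pseudocount of 5 the medians were 0.269 on C03 in siliques, 0.278 on C03 in seeds, -0.0769 on A03 in siliques and -0.134 on A03 in seeds. On A03 in siliques the median was -0.165 with no filter and -0.285 with a minimum of 5. Leaving out each replicate number gave medians of 0.616 to 0.635 and 0.576 to 0.615 on C03 in siliques and seeds, and of -0.217 to -0.18 and -0.328 to -0.288 on A03. C03 shares then ranged from 59.6% to 60.2% and 47.5% to 47.8% in siliques and from 48.5% to 49.4% and 33.5% to 33.6% in seeds of Lumen and Solar. Without BnaA03g04080D and BnaA03g03530D, an alternative chosen after seeing the data, the shares were 51.1% in siliques of Solar, 57.8% in seeds of Lumen and 45.3% in seeds of Solar. With all loci of both ranges in the sums, also chosen after seeing the data, the shares were 59.9% and 47.8% in siliques and 49.0% and 33.7% in seeds of Lumen and Solar. Rescaling a library cancels in its share and was not computed for it, nor was the fit without a filter, which keeps the members as the rule gives them.

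Counts of called members moved more. With single seasons, heat called 0 (2019) and 12 (2020) members in siliques and 1 and 11 in seeds, the interaction with time called 12 and 5 in siliques and 15 and 1 in seeds, and time in siliques called 57 in 2019. The interaction with tissue called 141 with a pseudocount of 5, 50 with a minimum of 5 and 41 in 2020, and that with time in seeds called 18 with a pseudocount of 5. Leaving out each replicate number gave 9 to 20 for heat in siliques and 2 to 12 in seeds, 178 to 223 and 208 to 291 for time, 30 to 71 and 102 to 234 for season, 6 to 34 and 12 to 61 for the interaction with season, 5 to 18 and 1 to 7 for that with time, 0 to 0 for that with heat in both tissues, and 40 to 78 for that with tissue. Of 459 values of 39 named results under alternatives, 413 kept their call and 46 lost it, and none reversed. Heat on BnaC03g03100D in seeds lost its call under 8 of them. Leaving out the heated Lumen 7 DAF 2019 library of number 3 in both tissues, chosen after seeing the data, gave medians of 0.64 and 0.608 on C03.

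Within a tissue, libraries of different conditions with the same number mostly did not deviate together (median r of 0.0159 in siliques and 0.00341 in seeds over 196 pairs each). Of these pairs, 34 in siliques and 27 in seeds had r over 0.1, with highest values of 0.231 and 0.371. Pairs of 1 hybrid and treatment at both times are a small part of them, so the median cannot exclude that such pairs share a plot. A replicate block gave 33 and 15 calls for heat, 32 and 59 for the interaction with season, 33 and 9 for that with time and 80 for that with tissue. Between the tissues, the silique and seed library of 1 condition and number did tend to deviate together (median r of 0.117 over 56 pairs, 34 of them over 0.1, against -0.0378 over 144 pairs of other numbers), which is a hint from the data, since the sources used here do not tie both libraries to 1 plot. A replicate block by condition and number over both tissues, chosen after seeing the data, called 102 members for the interaction with tissue in place of 78.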
